A study of Mus musculus with 8 samples.

Results

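Lung RNA-Seq counts of wild type and DDAH1-transgenic mice were examined for 10 secreted host defense genes: the serum amyloid A genes Saa1, Saa2 and Saa3, the acute-phase gene Orm1, the antimicrobial genes Lcn2, Ltf, Reg3g, Bpifa1 and Pglyrp1, and the antiprotease gene Slpi. They were found by their Entrez identifiers, and all 10 were among the 23469 genes of the count table. The genes were chosen by measured values as well as by function, because Saa3, Lcn2, Slpi, Bpifa1 and Saa1 are listed in the study's comparison of the PBS-treated groups. The values of that comparison are therefore given as a description, without a test. The comparisons of allergen-treated with PBS-treated mice reuse its libraries, so their tests are not independent of this choice. The study also lists Slpi, Reg3g and Bpifa1 for its comparison of the allergen-treated groups, whose libraries these tests reuse as well.

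The mice were C57BL/6 wild type or DDAH1-transgenic and received 100 µg of house dust mite extract (HDM), an allergen, in 50 µl of PBS by the intratracheal route, or 50 µl of PBS alone. They were challenged 3 times per week for 3 weeks, and lungs were taken 24 h after the last challenge. The 4 groups were PBS-treated wild type (WP), HDM-treated wild type (WH), PBS-treated DDAH1-transgenic (TP) and HDM-treated DDAH1-transgenic (TH) mice. RNA of 4 mice was pooled in each group and sequenced as 2 libraries, so that the spread between libraries is technical and no p-value below covers variation between mice. Age, sex, the promoter of the transgene and the cells that it is active in were not given in the sources used here. Dimethylarginine dimethylaminohydrolase 1 (DDAH1) degrades asymmetric dimethylarginine, an inhibitor of nitric oxide synthases.

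The libraries held 5694928 to 11929374 counts, and the smallest was TH replicate 1. The 45S ribosomal RNA gene Rn45s took 8.58% to 21.8% of the counts. Levels are given as CPM, the counts scaled to library size on a scale set over all 8 libraries, on which 3 counts, the detection floor, were 0.233 to 0.447 CPM in a library. Ddah1 stood at 47.6 and 34.3 CPM in WP, 77.2 and 53.7 CPM in TP, 43.1 and 44.8 CPM in WH, and 34.7 and 33.4 CPM in TH. The PBS-treated libraries labelled DDAH1-transgenic were thus above the wild type ones (edgeR adjusted p = 0.358), and the HDM-treated ones were below them (adjusted p = 0.637). Whether transcripts of the transgene are counted under Ddah1 is not stated. Xist, an RNA of the inactive X chromosome of females, was at 11.3 to 20.8 CPM in the 4 PBS libraries and at 2051 to 3028 CPM in the 4 HDM libraries, so that HDM and the sex of the mice cannot be told apart in any comparison of HDM with PBS. Within a treatment, the Xist levels of the genotypes overlapped. Markers of lung were present in all libraries, with summed levels of 11133 to 20913 CPM for 4 alveolar type 2 genes and of 562 to 1075 CPM for 4 alveolar type 1 genes.

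Serum amyloid A proteins are small apolipoproteins of the acute-phase response, the early change in secreted proteins that follows inflammation. In the mouse, Saa1 and Saa2 are made mainly by the liver, whereas Saa3 is made outside it, among others by macrophages, adipocytes and epithelium. The other proteins act on mucosal surfaces: LCN2 binds bacterial siderophores, lactoferrin (Ltf) binds iron, REG3G is a bactericidal lectin, BPIFA1 (SPLUNC1) is a secretory protein of the upper airways, PGLYRP1 binds bacterial peptidoglycan, and SLPI inhibits neutrophil elastase. Interleukins 1, 6, 17 and 22, acting through NF-kappaB, STAT3 and C/EBP factors, are known inducers of many of these genes.

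The 3 serum amyloid A genes lie close together on chromosome 7 (GRCm38). Saa3 (Entrez 20210) spans chr7:46711998-46719615, Saa1 (Entrez 20208) spans chr7:46740497-46743181, and Saa2 (Entrez 20209) spans chr7:46751833-46754313. The 250 bases before the RefSeq start site of each are printed 5′ to 3′ on the strand of the gene, because the 3 genes differed in level although they are neighbours. The spans are those of RefSeq and include predicted transcripts with a start further upstream, so that the printed Saa3 stretch lies within the span of Saa3 and that of Saa1 partly within the span of Saa1. Capitals mark matches to the letters TTGCNNAA (C/EBP-like) and GGNNTTTCC (kappaB-like), read on both strands.
Saa1, chr7:46742981-46743230, minus strand: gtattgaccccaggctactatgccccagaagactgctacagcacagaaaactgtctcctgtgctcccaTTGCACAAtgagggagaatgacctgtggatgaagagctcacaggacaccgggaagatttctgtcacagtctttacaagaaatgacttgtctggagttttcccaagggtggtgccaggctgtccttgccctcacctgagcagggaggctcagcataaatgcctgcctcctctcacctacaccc
Saa2, chr7:46751583-46751832, plus strand: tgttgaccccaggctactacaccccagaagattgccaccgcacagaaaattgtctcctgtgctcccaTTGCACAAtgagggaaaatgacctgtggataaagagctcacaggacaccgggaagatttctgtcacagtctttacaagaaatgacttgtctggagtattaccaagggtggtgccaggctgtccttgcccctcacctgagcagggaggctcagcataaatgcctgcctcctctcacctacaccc
Saa3, chr7:46715677-46715926, minus strand: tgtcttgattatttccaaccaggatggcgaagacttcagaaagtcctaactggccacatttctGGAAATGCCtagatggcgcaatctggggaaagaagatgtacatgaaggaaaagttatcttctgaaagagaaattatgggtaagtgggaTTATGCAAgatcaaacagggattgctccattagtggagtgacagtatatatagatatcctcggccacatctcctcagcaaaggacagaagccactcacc
The Saa1 and Saa2 stretches were identical at 238 of 251 aligned columns, that is 94.8%, and each held the C/EBP-like match TTGCACAA, which began at base -182 in Saa1 and at base -183 in Saa2, counted from the start site. The Saa3 stretch was 48.9% identical to that of Saa1 and 47.9% identical to that of Saa2. It held a C/EBP-like match that began at base -99 and a kappaB-like match that began at base -187, both on the opposite strand.

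Saa3 was the main serum amyloid A transcript of these lungs. Its counts were 838 and 1164 in WP, 1415 and 1359 in WH, 21 and 25 in TP, and 1102 and 3609 in TH. These counts correspond to levels of 84.0 and 95.1 CPM in WP, 127 and 137 CPM in WH, 2.10 and 2.64 CPM in TP, and 164 and 280 CPM in TH. The TP libraries were far below all others, the WP, WH and TH libraries followed in that order, and no groups overlapped. In RNA of whole lung, fewer cells of a type and less RNA per cell cannot be told apart. Saa3 was 37.8-fold lower in TP than in WP (log2 fold change -5.25, SE 0.31). HDM treatment of DDAH1-transgenic mice was accompanied by a rise with a log2 fold change of 6.56 (SE 0.35, adjusted p = 4.59e-07). This test reuses the TP libraries whose low counts led to the choice of Saa3. In wild type mice the log2 fold change was 0.55 (SE 0.17, adjusted p = 0.0709). In TH compared to WH it was 0.79 (SE 0.24, adjusted p = 0.127), with 1.11 (adjusted p = 0.000105) without TH replicate 1 and 0.38 (adjusted p = 0.326) without TH replicate 2.

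Saa1 was measured at low counts but had the same order of groups. The libraries held 20 and 30 counts in WP, 32 and 40 in WH, 0 and 0 in TP, and 37 and 87 in TH. Levels were 2.00 and 2.45 CPM in WP, 2.86 and 4.02 CPM in WH, and 5.52 and 6.74 CPM in TH, and no groups overlapped. Measured against the floor of 3 counts per library, Saa1 was at least 7.22-fold lower in TP than in WP. It was at least 19.9-fold higher in TH than in TP, with an edgeR adjusted p of 0.00526. This test reuses the TP libraries whose 0 counts made Saa1 low in the PBS comparison. Without TP replicate 1 the adjusted p was 0.0615, and without TP replicate 2 it was 0.0650. The log2 fold changes were 0.62 (SE 0.82, adjusted p = 0.751) in WH against WP and 0.87 (SE 0.75, adjusted p = 0.612) in TH against WH.

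Saa2 held 0 to 3 counts in every library and was at or under the floor in all groups, so that no difference was detectable at this depth. Of the stretches of 50 bases in the Saa1 transcript, 14.8% also occur in another serum amyloid A transcript, mostly in Saa2, and reads from these stretches cannot be assigned to 1 gene. In Saa3 this share was 1.78%. Per kilobase of transcript, the mean levels of Saa3, Saa1 and Saa2 in WP were 161, 3.66 and 0.125 CPM.

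Orm1 (Entrez 18405, chr4:63344556-63348163) encodes orosomucoid, an acute-phase carrier protein of plasma, and was likewise near the floor. Its counts were 16 and 6 in WP, 5 and 24 in WH, 1 and 4 in TP, and 18 and 69 in TH. The TH libraries were the highest at 2.68 and 5.35 CPM, and the WP and WH libraries overlapped. None of its differences passed the test, with log2 fold changes of 0.45 (SE 1.17, adjusted p = 0.885) for WH against WP, 3.91 (SE 1.27, adjusted p = 0.0626) for TH against TP, and 1.53 (SE 1.11, adjusted p = 0.540) for TH against WH. In the PBS comparison Orm1 did not pass the low-count filter, and 20.4% of the 50-base stretches of Orm1 are shared with Orm2 or Orm3.

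**Figure D1:**
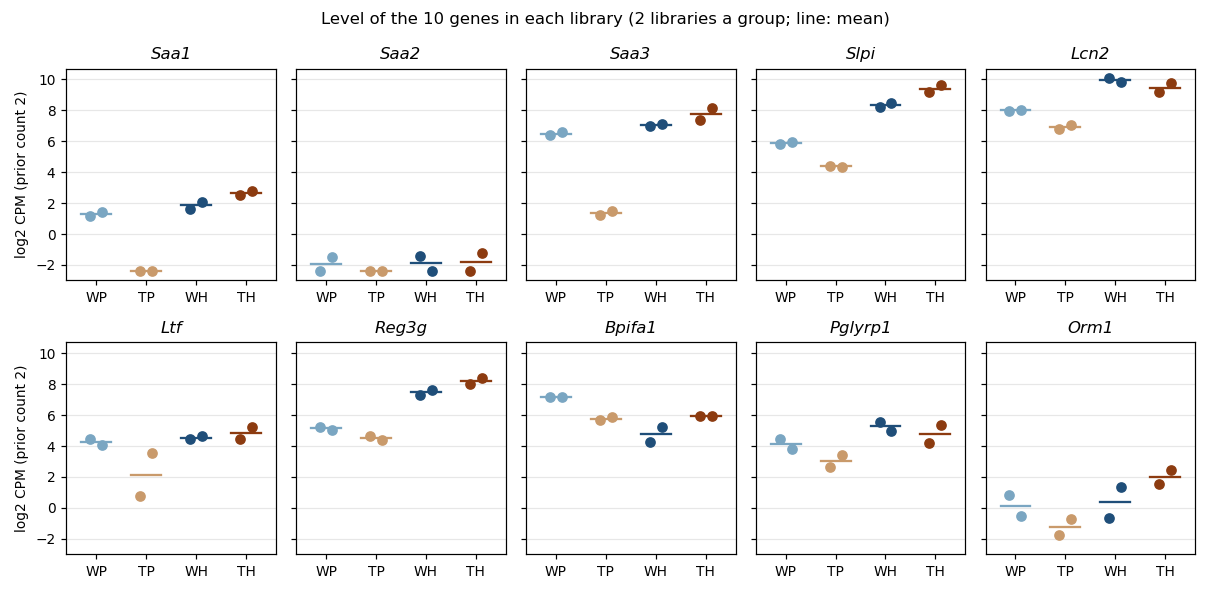
Level of each of the 10 genes in each library, as log2 CPM with a prior count of 2, by group (WP, TP, WH and TH, 2 libraries each), with a line at the mean. The 2 TP libraries are the lowest for Saa3, at 2.10 and 2.64 CPM, and Bpifa1 is highest in WP, at 144 and 142 CPM.

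Slpi, Lcn2 and Reg3g shared a rise under HDM in both genotypes. C/EBP-like matches were found upstream of Slpi and Lcn2, and also of Ltf, and are shown in 30 bases each, with the match in capitals, to set them beside the serum amyloid A sequences.
Slpi, chr2:164356728-164356757, minus strand: gaatttgtaTTGAGCAAtaggttagagttt
Lcn2, chr2:32387937-32387966, minus strand: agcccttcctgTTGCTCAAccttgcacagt
Ltf, chr9:111019206-111019235, plus strand: aggcaggcctaTTGGGCAAtagggtggggc
Of the 10 genes, 9 had a promoter entry in RefSeq (GRCm38.p6; 250 bases before to 50 after the start), and Orm1 was the gene without one. TTGCNNAA was found in 6 of these 9, and in 10.8% of the 32851 mouse promoters in the table. GGNNTTTCC was found in 3 of the 9, in Saa3, Reg3g and Pglyrp1, and in 5.82% of all promoters. TTCNNNGAA (STAT-like) was found in 0 of the 9 and in 8.3% of all promoters. A match describes the letters only, and binding was not measured.

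Slpi (Entrez 20568, chr2:164354070-164356507) encodes the secretory leukocyte peptidase inhibitor. Its levels were 55.1 and 61.3 CPM in WP, 292 and 354 CPM in WH, 21.1 and 20.2 CPM in TP, and 585 and 780 CPM in TH. The groups were ordered TP, WP, WH, TH, and none overlapped. HDM treatment was accompanied by a rise in wild type mice, with a log2 fold change of 2.47 (SE 0.16, adjusted p = 3.20e-07). In DDAH1-transgenic mice the rise was 5.07 (SE 0.22, adjusted p = 1.03e-07) on the same scale, from 20.6 ± 0.681 to 683 ± 138 CPM (SD, n = 2 libraries). This last test reuses TP and TH libraries of comparisons for which the study lists Slpi, so it is not independent of the choice. The genotype difference was -1.51 (SE 0.26) under PBS and 1.12 (SE 0.19) under HDM, both given without a test because the study lists Slpi for both comparisons.

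Lcn2 (Entrez 16819, chr2:32384637-32387739) encodes lipocalin 2 and had the highest level of the 10 genes per kilobase in WP, TP and WH. Its levels were 253 and 254 CPM in WP, 1076 and 890 CPM in WH, 109 and 134 CPM in TP, and 580 and 861 CPM in TH. Both HDM groups were above both PBS groups, and unlike Slpi the WH libraries were the highest. The log2 fold change with HDM was 1.95 (SE 0.13, adjusted p = 2.84e-07) in wild type mice. In DDAH1-transgenic mice it was 2.59 (SE 0.22, adjusted p = 2.35e-05). The difference of TH from WH was -0.41 (SE 0.20, adjusted p = 0.331). It was -0.17 without TH replicate 1, -0.70 without TH replicate 2, -0.29 without WH replicate 1 and -0.53 without WH replicate 2. The difference of TP from WP was -1.07 (SE 0.15).

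Reg3g (Entrez 19695, chr6:78466269-78468874) encodes regenerating islet-derived protein 3 gamma. Its levels were 38.1 and 33.3 CPM in WP, 159 and 198 CPM in WH, 25.0 and 20.5 CPM in TP, and 255 and 333 CPM in TH. The order of the groups was that of Slpi, without overlap. The log2 fold change with HDM was 2.32 (SE 0.19, adjusted p = 2.85e-06) in wild type mice and 3.72 (SE 0.24, adjusted p = 2.60e-06) in DDAH1-transgenic mice. Both tests reuse HDM libraries of a comparison for which the study lists Reg3g, so they are not independent of that listing. The genotype difference was -0.66 (SE 0.30) under PBS and 0.76 (SE 0.21) under HDM, again without a test.

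Bpifa1 (Entrez 18843, chr2:154142880-154149217) was the only one of the 10 genes that fell with HDM. Its levels were 144 and 142 CPM in WP, 19.2 and 37.2 CPM in WH, 50.9 and 57.9 CPM in TP, and 61.7 and 59.9 CPM in TH. WP stood highest and WH lowest, with both transgenic groups between them. In wild type mice the log2 fold change with HDM was -2.35 (SE 0.26, adjusted p = 5.56e-05), that is 5.08-fold lower. In DDAH1-transgenic mice it was 0.19 (SE 0.26, adjusted p = 0.706), and -0.60 with an offset for gene length. The wild type test reuses WP and WH libraries of comparisons for which the study lists Bpifa1, so it is not independent of the choice. The genotype difference was -1.41 (SE 0.18) under PBS and 1.15 (SE 0.34) under HDM, without a test.

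Ltf and Pglyrp1 are granule proteins of neutrophils that epithelia also secrete. Ltf (Entrez 17002, chr9:111019292-111042766) stood at 21.7 and 16.9 CPM in WP, 22.2 and 24.3 CPM in WH, 1.5 and 11.3 CPM in TP, and 21.5 and 37.1 CPM in TH. The 2 TP libraries were the lowest and differed from each other, with 15 and 107 counts. The other groups lay close together, and TH overlapped WP. None of the tested differences of Ltf passed with edgeR, with log2 fold changes of 0.26 (SE 0.33, adjusted p = 0.736) for WH against WP, 2.22 (SE 0.70, adjusted p = 0.0550) for TH against TP, and 0.38 (SE 0.37, adjusted p = 0.671) for TH against WH. For TH against TP, Ltf was at 4.30 (adjusted p = 0.0217) without TP replicate 2, 1.39 (adjusted p = 0.204) without TP replicate 1 and 2.54 (adjusted p = 0.00379) without TH replicate 1, and DESeq2 called it (adjusted p = 0.0131). The difference of TP from WP was -1.61 (SE 0.62), and it was -0.77 without TP replicate 1 and -3.68 without TP replicate 2.

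Pglyrp1 (Entrez 21946, chr7:18884690-18890438) stood at 22.0 and 13.6 CPM in WP, 46.1 and 31.7 CPM in WH, 6.01 and 10.7 CPM in TP, and 18.2 and 40.7 CPM in TH. The TP libraries were the lowest, and the TH libraries overlapped those of both wild type groups. It rose with HDM in DDAH1-transgenic mice, with a log2 fold change of 1.84 (SE 0.49, adjusted p = 0.0282). This call was lost without TP replicate 1 (1.48, adjusted p = 0.224), without TP replicate 2 (2.31, adjusted p = 0.115) and without TH replicate 2 (1.15, adjusted p = 0.214), and with the offset for gene length (0.69, adjusted p = 0.402). The other log2 fold changes were 1.13 (SE 0.34, adjusted p = 0.0660) for WH against WP, -0.36 (SE 0.39, adjusted p = 0.714) for TH against WH, and -1.11 (SE 0.46) for TP against WP.

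Per kilobase of transcript, Lcn2 led in WP at 277 CPM, followed by Saa3 at 161, Bpifa1 at 130, Slpi at 66.4 and Reg3g at 46.3. In TP the order changed to Lcn2 at 133 CPM, Bpifa1 at 49.2, Reg3g at 29.5 and Slpi at 23.6, with Saa3 at 4.27. In WH the leading levels were Lcn2 at 1074 CPM, Slpi at 369, Saa3 at 237 and Reg3g at 231, and the last 2 were close. In TH Lcn2 at 787 CPM and Slpi at 779 were not distinguishable beyond the spread between libraries, and Saa3 at 400 and Reg3g at 382 followed. The summed level of the 10 genes was 620 to 621 CPM in WP, 216 to 258 in TP, 1679 to 1744 in WH and 1695 to 2404 in TH.

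Seen together in the PBS comparison, all 8 genes that passed the low-count filter were lower in TP than in WP, with no overlap of the libraries for any of them. Of all 14926 genes tested there, 20.3% were lower without overlap, 0.375% were lower past an adjusted p of 0.05 and 0.281% were higher past it. The median log2 fold change of the 8 genes was -1.46 and that of all genes was 0.00068. This contrast was used in the choice of the genes, and nothing is read from the count. Orm1 and Saa2 did not pass the filter.

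In wild type mice, HDM was accompanied by a rise of 3 of the 9 genes tested, Slpi, Lcn2 and Reg3g, and by a fall of 1, Bpifa1. Over all genes, 4.44% rose and 2.3% fell in this comparison. The median log2 fold change was 0.62 for the 9 genes and 0.019 for all genes. In DDAH1-transgenic mice, 6 of the 9 genes rose, namely Saa1, Saa3, Slpi, Lcn2, Reg3g and Pglyrp1, and 0 fell. Over all genes, 8.43% rose and 5.35% fell, and the medians were 3.72 for the 9 genes and 0.031 for all genes. Bpifa1, Ltf and Orm1 did not pass the edgeR test here. Both comparisons share their PBS libraries with the contrast used in the choice of the genes. A low level in TP that led to the choice of a gene also enlarges its rise from TP to TH. A high level in WP that led to the choice likewise enlarges a fall from WP to WH, as for Bpifa1. The counts of genes that rose or fell are therefore not read as a result. In a fit of all 8 libraries, 1.76% of the 15868 genes tested had an HDM response that differed between the genotypes, and the values of the 10 genes for this difference are a description only.

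**Figure D2:**
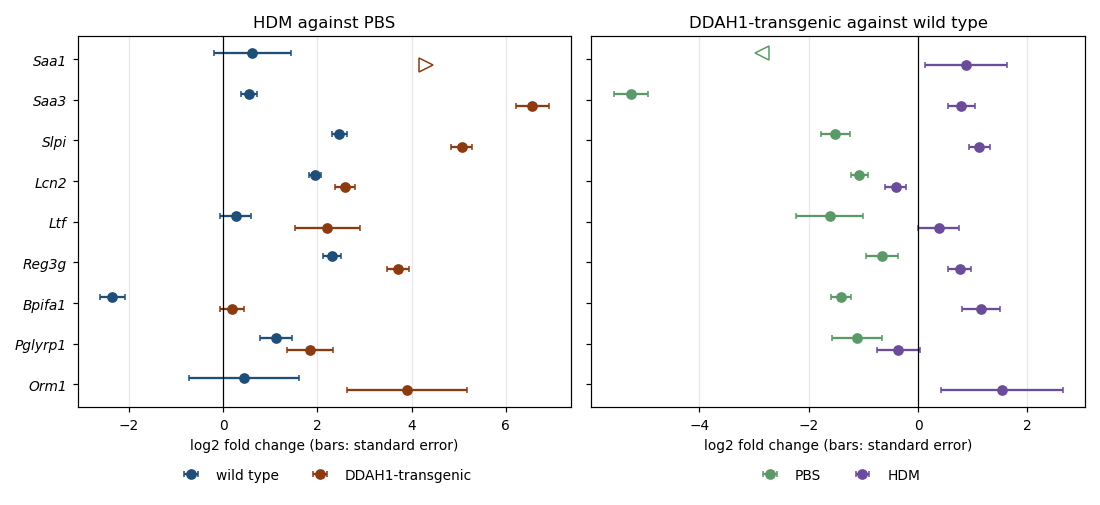
Log2 fold changes of 9 genes (Saa2 was under the floor) for HDM against PBS in each genotype and for DDAH1-transgenic against wild type under each treatment, with standard errors as bars and open triangles for the bounds of Saa1. Saa3 lies at 6.56 in transgenic and 0.55 in wild type mice, and Bpifa1 at 0.19 and -2.35.

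In HDM-treated mice, 7 of the 9 genes stood higher in TH than in WH and 2, Lcn2 and Pglyrp1, stood lower. Slpi, Reg3g and Bpifa1, all higher in TH, were given no test because the study lists them for this comparison. Of the other 6 genes, 0 passed the edgeR test, and 1, Saa3, had an unadjusted p under 0.05. Among these 6, DESeq2 called Saa3 (log2 fold change 0.77, adjusted p = 0.0457). With listed genes left out, this count is not comparable to the shares over all genes. Over all 15191 genes tested, 1.84% were higher and 0.599% were lower past the threshold. The median log2 fold change of the 9 genes was 0.79, and that of all genes 0.010.

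The comparison of TH with WH was also related to gene length. Over all genes with a known length, the Spearman correlation of log2 fold change with transcript length was -0.281 for TH against WH and -0.331 for TH against TP, but -0.127 for WH against WP and 0.0129 for TP against WP, given as a description across genes that share the same libraries. The 9 genes have transcripts of 555 to 2743 bases. With an offset for length in each library, the log2 fold change of TH against WH was 0.01 for Saa3, 0.54 for Slpi, 0.13 for Reg3g and 0.71 for Bpifa1. Lcn2 was then lower in TH, at -0.98 (adjusted p = 0.0279), and Pglyrp1 was at -1.08 (adjusted p = 0.243). The median of the 9 genes was 0.16 in place of 0.79. For TH against TP the offset gave a median of 2.66 and 5 genes that rose, without Pglyrp1.

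**Figure D3:**
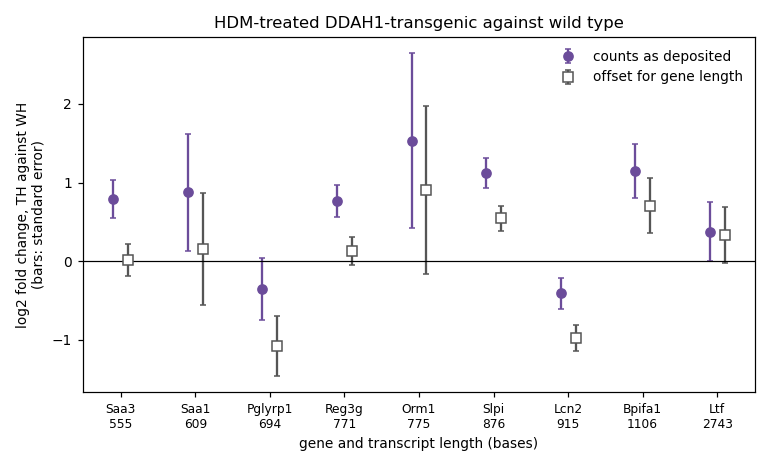
Log2 fold change of TH against WH, with standard errors as bars, for 9 genes in the order of their transcript length in bases, from counts as deposited (filled) and with an offset for gene length (open). The open symbols lie below the filled ones, at 0.01 and 0.79 for Saa3 and at -0.98 and -0.41 for Lcn2.

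Counts in the lists below stand beside the shares of all genes past the threshold. These were 0.281% higher and 0.375% lower for TP against WP, and 4.44% and 2.3% for WH against WP. They were 8.43% and 5.35% for TH against TP, and 1.84% and 0.599% for TH against WH. Of 24 cytokines that induce such genes, their receptors and transcription factors, 20 were tested in each comparison. Under PBS, 1 was lower in TP than in WP and 0 were higher. It was Il1b, the interleukin 1 beta gene, at 5.88 ± 1.60 CPM in TP and 43.8 ± 0.696 CPM in WP (SD, n = 2 libraries; log2 fold change -2.91, adjusted p = 0.000150). The study lists Il1b, Il1rn, S100a8, S100a9 and Sftpa1 for this comparison, and Osmr, Ccl20 and Fpr2 for TH against WH. Their calls in those comparisons, here and below, were thus known beforehand and are no independent evidence. With HDM, 0 of the 20 genes passed the edgeR test in wild type mice, where 2 were higher and 4 lower at an unadjusted p under 0.05. In DDAH1-transgenic mice 2 of 20 rose and 3 fell. With so few genes this count is not read as different from the shares over all genes. The interleukin 1 genes Il1a and Il1b rose by log2 fold changes of 2.69 and 1.76, and the interleukin 6 receptor gene Il6ra was at -1.14. With the length offset 1 rose (Il1a) and 1 fell (Il6ra), and Il1b was at 1.13 (adjusted p = 0.164). In TH compared to WH, 1 gene was lower, the oncostatin M receptor gene Osmr at -1.09 (adjusted p = 0.0362, and 0.116 with the length offset).

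Other acute-phase genes differed in part from the serum amyloid A genes. Of 22 listed, 16 were tested under PBS, and 1 was lower in TP, the interleukin 1 receptor antagonist gene Il1rn, at 33.2 ± 12.9 CPM compared to 98.6 ± 4.38 CPM in WP (log2 fold change -1.59, adjusted p = 0.00263). In wild type mice 4 of 16 rose with HDM, among them the serine protease inhibitor genes Serpina3g (2.61) and Serpina3n (2.54), and 1 fell, the haptoglobin gene Hp (-1.04). In DDAH1-transgenic mice 5 of 17 rose, among them Serpina3g (2.74), the lipopolysaccharide co-receptor gene Cd14 (2.02) and Il1rn (1.67), and 0 fell. With the length offset 5 rose and 1 fell. Between the HDM groups 1 of 15 passed, Serpina3n, at 119 ± 13.6 CPM in TH and 253 ± 30.1 CPM in WH (log2 fold change -1.05, adjusted p = 0.0195).

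Among 25 other antimicrobial genes, 16 were tested under PBS. In TP, 3 were lower, the neutrophil granule gene Ngp (-6.75) and the calprotectin genes S100a9 (-3.77) and S100a8 (-2.28), and 1 was higher, Sftpa1. In wild type mice 4 of 16 rose with HDM and 4 fell, with Pigr, the receptor that carries IgA across epithelium, at 2.36 and S100a9 and S100a8 at -2.38 and -2.14. In DDAH1-transgenic mice 8 of 15 rose and 0 fell, or 4 rose and 3 fell with the length offset. The chemokine gene Ccl20 (4.02) and Pglyrp2 (3.94), a relative of Pglyrp1, were among the 8, as was Dmbt1, which was at 0 counts in TP and at 4.68 ± 0.505 CPM in TH. Between the HDM groups, 3 of 15 were higher in TH, and 0 with the length offset. They were Ccl20 (2.69), Sftpd and Wfdc2 (1.17), which encodes a whey acidic protein domain protein related to SLPI. Pigr was lower (-0.98).

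Of 14 other antiprotease genes listed, 11 were tested under PBS and 0 passed the edgeR test between TP and WP, with 2 lower at an unadjusted p under 0.05. In wild type mice 5 of 11 rose and 0 fell. In DDAH1-transgenic mice 6 of 11 rose and 0 fell, or 4 and 0 with the length offset. Timp1, the tissue inhibitor of metalloproteinases, was at 5.47 ± 0.341 CPM in WP, 65.7 ± 2.14 CPM in WH, 1.70 ± 0.427 CPM in TP and 48.5 ± 5.25 CPM in TH, with log2 fold changes of 3.58 and 4.85. Wfdc12 was at 0 counts in WP and at 2.69 ± 2.39 CPM in WH. Wfdc17 and the cystatin B gene Cstb had log2 fold changes of 3.78 and 2.80 in DDAH1-transgenic mice. Between the HDM groups, 2 of 12 were higher in TH, Wfdc2 and Cstb (1.08), or 0 with the length offset, and Serpina3n was lower.

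The list of receptors and targets of these proteins held 14 genes, of which 11 were tested. Under PBS 0 of them passed the edgeR test, with 1 higher and 2 lower in TP at an unadjusted p under 0.05. Fpr2, a receptor at which serum amyloid A acts, was at 16.0 ± 3.13 CPM in WP, 7.38 ± 0.886 CPM in TP, 3.29 ± 0.666 CPM in WH and 21.2 ± 0.419 CPM in TH (SD, n = 2 libraries). It fell with HDM in wild type mice (log2 fold change -2.28, adjusted p = 0.0133) and was higher after HDM in DDAH1-transgenic mice (1.55, adjusted p = 0.0394). It was higher in TH than in WH (2.72, adjusted p = 0.0149), and the last 2 calls were lost with the length offset (adjusted p = 0.306 and 0.0621). The only other genes of the list that passed were Tlr2 (1.26) and Cd36 (-0.96), both with HDM in DDAH1-transgenic mice. With the length offset 0 genes of the list rose and 1 fell there. Elane, the target of SLPI, was at or near 0.

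Lists of cell type markers also differed between TP and WP, some lower and some higher in TP. Several hold genes that the study reports for this same comparison, such as S100a8, Adipoq, Sprr2a1, Rag1 and Myh4. These changes were thus known beforehand. The 13 neutrophil markers in the table summed to 448 to 479 CPM in WP and 188 to 211 CPM in TP, and 5 of 11 tested were lower in TP, while Mpo was at 0 and Elane at 0 to 0.082 CPM in the group means. The 10 adipocyte markers summed to 271 to 323 CPM in WP and 131 to 157 CPM in TP, with 2 of 8 lower. The 6 squamous epithelial markers summed to 29.6 to 31.9 CPM in WP and 1.16 to 1.60 CPM in TP, nearly all of it from Sprr2a1, which was at 28.9 ± 0.210 CPM in WP and 0.517 ± 0.165 CPM in TP. The squamous keratin genes Krt13, Krt4 and Krt6a were at or near 0 in both. The 5 thymocyte markers summed to 49.2 to 59.8 CPM in WP and 14.0 to 17.7 CPM in TP, and the 5 skeletal muscle markers to 41.3 to 44.0 CPM in WP and 199 to 200 CPM in TP. The 4 alveolar type 1 markers were also higher in TP, at 934 to 1075 CPM compared to 654 to 776 CPM in WP. The part of these cells in the levels of the 10 genes was not tested.

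Under HDM the lists stood otherwise. Neutrophil markers summed to 253 to 257 CPM in WH, below WP, with 1 of 11 tested genes higher and 4 lower. They summed to 271 to 272 CPM in TH, above the 188 to 211 CPM of TP. There 2 of 8 tested genes were higher and 0 lower, or 1 and 0 with the length offset. The 7 macrophage markers summed to 571 to 606 CPM in WP, 729 to 744 in TP, 9719 to 9960 in WH and 3875 to 4913 in TH. Most of these sums came from Chil3, and between TP and WP 0 of the 7 genes passed the test, with a median log2 fold change of -0.23. Squamous markers were at 94.8 to 104 CPM in WH and 116 to 139 CPM in TH, and adipocyte markers at 156 to 159 and 161 to 195 CPM. Thymocyte markers were at most at 15.4 CPM in WH and 17.6 CPM in TH. Skeletal muscle markers were at 166 to 182 CPM in WH and 89.9 to 107 CPM in TH. WP was thus the highest of all groups for the thymocyte sum and the lowest for the skeletal muscle sum. What set WP apart in these lists was not tested. The 9 airway secretory markers were at 30091 to 37581 CPM in WP, 36238 to 54502 in TP, 15413 to 17319 in WH and 12073 to 16389 in TH. These sums were carried by Scgb1a1, which fell with HDM in both genotypes. Most of the list rose in the counts as deposited, but not with the length offset. In wild type mice 5 of 9 were higher and 3 lower, or 4 and 4 with the offset. In DDAH1-transgenic mice 7 were higher and 2 lower, or 3 and 2 with the offset. The 4 airway ciliated markers were at 176 to 181 CPM in WP, 177 to 222 in TP, 114 to 161 in WH and 121 to 129 in TH. The part of the listed cells in the HDM differences was not tested. Of the hepatocyte markers, Ttr and Fgb had 0 counts in every library and albumin (Alb) had a group mean of at most 0.654 CPM. The summed hepatocyte level of 59.3 to 131 CPM came from Serpina1a and Cyp2e1.

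**Figure D4:**
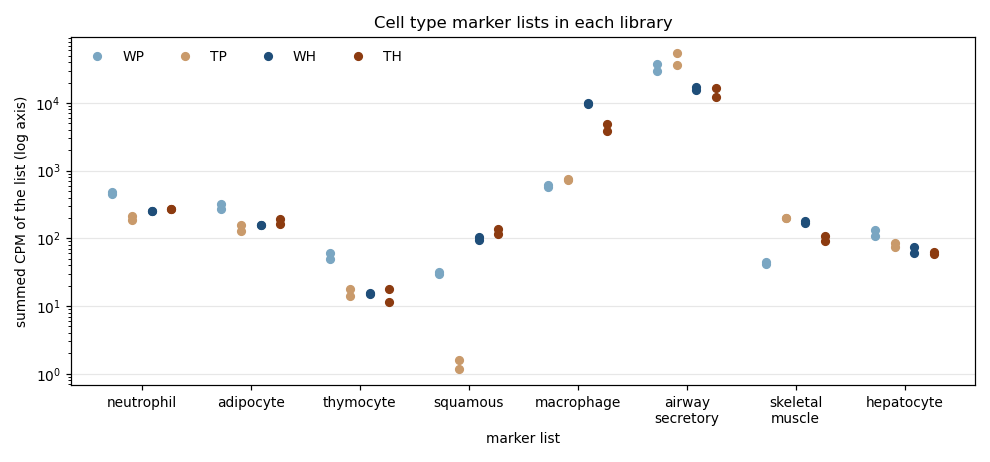
Summed CPM of 8 lists of cell type markers in each library, on a log axis, by group (WP, TP, WH and TH, 2 libraries each). The squamous sum, which in WP is nearly all Sprr2a1, is lowest in TP, at 1.16 to 1.60 CPM. Macrophage markers are highest in WH, at 9719 to 9960 CPM.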

How the data were processed

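RNA of 4 mice per group was pooled by the authors, amplified and sequenced as 2 libraries with single reads. Reads were aligned to mm10 with TopHat. The values deposited by the authors are raw read counts per gene, not normalized. The 10 genes and all gene lists were chosen with earlier results of these data known, and no list is independent evidence. The named genes are the 10 genes, Ddah1, Xist, up to 3 genes per list with the largest change among those past the threshold (the most abundant ones where none passed), and the genes most alike over the libraries.

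Each comparison was tested over all genes on its own 4 libraries with edgeR 4.0.16 (R 4.3.3; quasi-likelihood test, TMM, filterByExpr with a count minimum of 10). The Benjamini-Hochberg adjustment ran over all genes tested, with a threshold of 0.05. The standard error is the log2 fold change divided by the square root of F. The script was tested on simulated data. Alternatives were DESeq2 1.42.0, median-ratio scaling, no filter, library sizes without Rn45s and haemoglobin genes, all 8 libraries, a length offset (loess, span 0.5, on GENCODE M21 transcripts), the replicate number as a block, total count scaling, and leaving out each library. Symbols, positions and promoters came from RefSeq and GENCODE for GRCm38, and 23372 of the 23469 identifiers had a name. The floor of 3 counts covers counting error only.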

Additional observations from a re-analysis of the deposited data

Results flagged for a closer look

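In a fit of all 8 libraries, the HDM response was compared between the genotypes, and 1.76% of all 15868 genes passed the test of this difference. Of the 10 genes, 5 are given here because of it. The response of DDAH1-transgenic mice minus that of wild type mice was 6.00 for Saa3, 2.58 for Slpi, 2.51 for Bpifa1 and 1.38 for Reg3g on the log2 scale, and at least 3.68 for Saa1, measured against the floor of 3 counts in TP. With the length offset it was 5.14 for Saa3, 1.91 for Slpi, 1.97 for Bpifa1 and 0.66 for Reg3g, and Reg3g and Saa1 were then no longer past the threshold. Saa1 also missed it when any 1 of the 6 libraries of WP, WH and TP was left out, as did Reg3g without WP replicate 1 (1.27), WH replicate 1 (1.22) or TP replicate 2 (1.24). No p-value is given, and nothing is read from the count or from a threshold passed or missed. This difference contains the PBS comparison from which genes were chosen, and TH against WH, for which the study lists Slpi, Reg3g and Bpifa1. It also contains the very low Saa3 and Saa1 values of both TP libraries, 21 and 25 counts and 0 and 0 counts. With 2 libraries in a group, no rule for outlying values could be applied.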

How the results depend on the processing

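Over all alternatives, 231 of 263 tested values of single genes kept their direction and their side of the threshold, 6 lost the call, 21 gained it and 5 changed direction. In TP against WP, each gene that could be fitted was lower under every alternative. For TH against WH, 1 of the 6 genes given a test passed with DESeq2 (Saa3), 1 without the low-count filter (Saa3) and 1 with the length offset (Lcn2), and 0 to 1 when a library was left out (Saa3 without TH replicate 1, log2 fold change 1.11, and Lcn2 without TH replicate 2, -0.70). Leaving out a library gave -0.057 to 0.69 for Ltf and -1.04 to 0.086 for Pglyrp1 in TH against WH, and -1.21 to 1.52 for Orm1 in WH against WP. Bpifa1 in TH against TP changed to -0.60 with the length offset. Saa3 in WH against WP passed with DESeq2 (adjusted p = 0.0336), without the filter (adjusted p = 0.0393) and without WH replicate 1 (adjusted p = 0.0470). Pglyrp1 in WH against WP and Ltf and Orm1 in TH against TP passed with DESeq2 (adjusted p = 0.0278, 0.0131 and 0.0308) and without the filter. Libraries with the same replicate number did not deviate together (r between -0.022 and 0.016 over 15762 genes), so the numbers do not pair them. With the replicate block, 5 genes passed in WH against WP, Pglyrp1 included (1.14, adjusted p = 0.0321), and 7 in TH against TP, Ltf included (2.67, adjusted p = 3.64e-06). Saa2, and Orm1 under PBS, were limited by depth, and the smallest library was in TH.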

Other observations

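Over the 8 libraries, the genes with a log2 CPM pattern most like that of 4 of the genes were sought among 15762 genes, as a description over libraries that share 4 pools. For Saa3 they were Saa1 (Pearson r 0.994), Sprr2a2 and Sprr2a1 (0.991 each), Zbtb1 (0.984) and Pkdcc (0.983). Sprr2a2 and Sprr2a1 encode small proline-rich proteins and are near-identical copies whose reads may be shared. For Slpi they were Mpeg1, a macrophage gene (0.998), Arhgap45 (0.995), Ifitm1, Ctss and Gpnmb (0.992 each). For Lcn2 they were the leukocyte integrin gene Itgb2 (0.992), Timp1 (0.991), Lcp1 and Lilrb4a (0.989 each) and Gm4070 (0.987). For Reg3g they were Arhgap45 and the major histocompatibility gene H2-D1 (0.996 each), H2-Q9 and H2-Q7 (0.995 each) and Ctss (0.995). No gene of the Saa3 list was in the other lists, and the same held for the Lcn2 list. The lists of Slpi and Reg3g shared Arhgap45 and Ctss.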
